A study of Mus musculus with 6 samples.

Results

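Wnt signalling genes were described in 6 mouse embryo samples from 56359 rows of a deposited TPM table (a transcript level scaled to gene length and to the library total). The 57 genes were chosen by their names. They are 19 Wnt ligands, 12 Frizzled and Lrp receptors, 7 R-spondins and Lgr receptors, 9 secreted antagonists of the Sfrp and Dkk families, 4 TCF/LEF transcription factors and 6 feedback inhibitors. The study compared 3 wild type with 3 Tmem216-/- samples of C57BL/6 embryos at embryonic day 12. Tmem216 encodes a membrane protein of the transition zone, the gate at the base of the primary cilium. The labels name the source only as embryo. They do not give the part taken, the sex, the litter, the Tmem216 allele, or whether each sample is a separate embryo. P-values therefore only set a group difference against the spread among these samples, and part of that spread may be technical. They cannot be carried over to other embryos of these genotypes. The number of reads behind a TPM value is unknown. In bulk tissue, fewer cells that express a gene and less RNA per cell cannot be told apart.

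Wnt proteins are secreted, lipid-modified ligands that bind a Frizzled receptor, and for the canonical branch also Lrp5 or Lrp6. Binding halts the destruction of beta-catenin, which enters the nucleus and acts with TCF/LEF factors on target genes. Several targets encode inhibitors of the pathway itself (Axin2, Nkd1, Notum, Znrf3 and Rnf43), and their levels are widely used as a readout. R-spondins bind Lgr receptors and hold back the ubiquitin ligases Znrf3 and Rnf43, which otherwise remove Frizzled receptors from the cell surface. In the midgestation embryo Wnt signals pattern the dorsal neural tube, the forebrain midline, the limbs, the tail and the kidney.

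None of the Wnt genes passed the test between Tmem216-/- and wild type. Of the 57 genes, 52 reached the filter (3 samples with a TPM of at least 1) and were tested by limma. Of those 52, 0 had a Benjamini-Hochberg adjusted p under 0.05, against 17 of 16411 tested genes (0.104%). At an unadjusted limma p under 0.05 there were 3 of 52 genes, Dkk2, Wnt8b and Tcf7l2, which is 5.77% against 4.46% of all tested genes. The median log2 fold change of the 52 was -0.02, with 24 above and 28 below 0, and that of all tested genes was -0.01. In 10 of the 52 genes (19.2%) the groups did not overlap, 7 with Tmem216-/- higher and 3 with it lower, against 9.57% of all tested genes (4.75% higher and 4.83% lower). With 3 against 3 samples an exact two-sided permutation test cannot go below 0.1, the value that each of these 10 genes has.

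Tmem216 itself was at 31.0, 30.7 and 17.4 TPM in wild type replicates 1, 2 and 3 and at 2.25, 0.51 and 1.39 TPM in Tmem216-/-, a log2 fold change of -3.55 (limma adjusted p = 0.0266, range 0.0199 to 0.196 over the 14 alternatives). The groups also differed in tissue markers. These marker lists were chosen with earlier results of these data known, so they describe the samples and are no independent test. All 8 heart muscle markers were higher in every Tmem216-/- sample, with a summed level of 39.0 to 54.9 TPM in wild type and 754 to 1950 TPM in Tmem216-/-, and 7 of the 8 passed limma. Of 7 forebrain markers 5 were lower in every Tmem216-/- sample, with sums of 136 to 155 and 78.1 to 111 TPM. Tbx5, a forelimb and heart factor, was higher in every Tmem216-/- sample (12.7 to 18.2 against 2.33 to 11.9 TPM). The sums of 3 hindlimb markers were 62.8 to 92.4 and 27.0 to 49.0 TPM, with 1 of the 3, Pitx1, lower in every Tmem216-/- sample. The 9 posterior Hox genes summed to 51.1 to 131 and 8.36 to 58.8 TPM, with 3 of the 9 lower in every Tmem216-/- sample. Surface ectoderm markers summed to 121 to 156 and 75.9 to 108 TPM, with 2 of 7 lower throughout. Liver markers split the samples another way, at 1966 and 2352 TPM in wild type replicates 1 and 2 and 986 TPM in Tmem216-/- replicate 1, but 101 to 200 TPM in the other three samples. Y-linked genes summed to 49.6, 99.2 and 71.4 TPM in wild type replicates 1 and 2 and Tmem216-/- replicate 2, and to at most 0.17 TPM in the others, so the groups were mixed in sex. The part of these tissue differences in the values below was not tested.

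**Figure D1:**
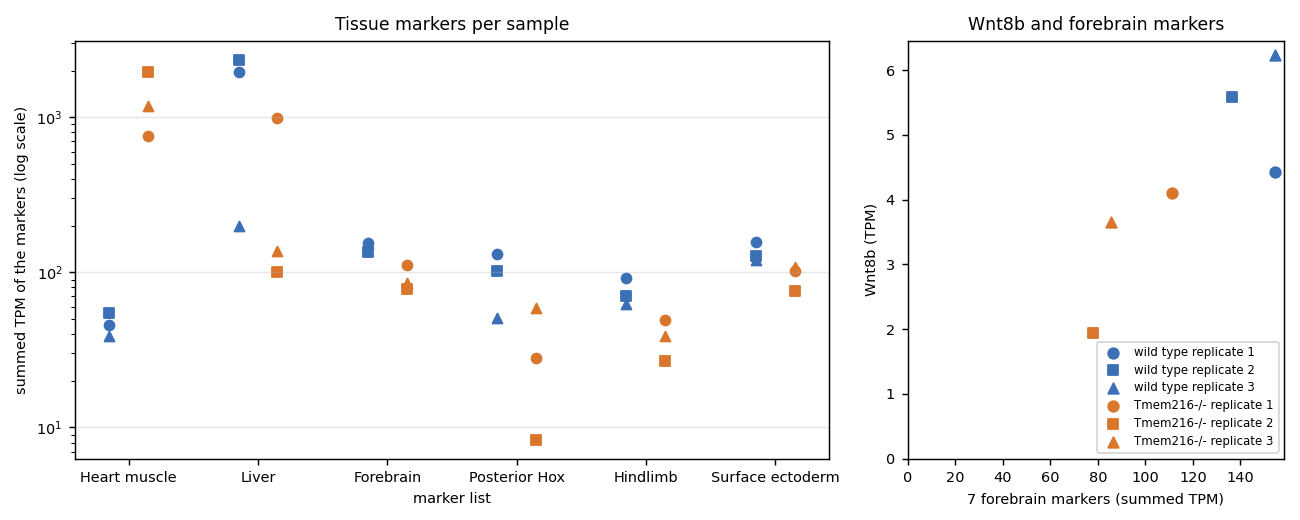
Left, summed TPM of 6 tissue marker lists (log scale) in each sample, blue for wild type and orange for Tmem216-/-, with circle, square and triangle for replicates 1, 2 and 3. Heart muscle, forebrain, hindlimb and surface ectoderm sums do not overlap between the groups. Right, Wnt8b against the summed level of 7 forebrain markers (TPM), where the 3 Tmem216-/- samples lie lowest on both axes.

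The bases just before the transcription start are shown for the 3 genes with an unadjusted p under 0.05 (Dkk2, Tcf7l2 and Wnt8b) and for the Wnt11 and Wnt5b starts whose 250 upstream bases hold a TCF/LEF core motif. They come from RefSeq promoter entries of build GRCm38.p6, in which 38 of the 57 genes matched, with 47 starts. Each stretch is the last 120 bases before a start, is free of annotated exons, and has in capitals any match, on either strand, to the core motif CTTTGAT or to a variant of it, which was CTTTGAA for the first, CTTTGTT for the next and CTTTGTA for the last.
Dkk2, chr3:132085172-132085291, plus strand: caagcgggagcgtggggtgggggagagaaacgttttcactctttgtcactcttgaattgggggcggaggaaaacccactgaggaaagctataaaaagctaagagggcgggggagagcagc
Tcf7l2, chr19:55741690-55741809, plus strand: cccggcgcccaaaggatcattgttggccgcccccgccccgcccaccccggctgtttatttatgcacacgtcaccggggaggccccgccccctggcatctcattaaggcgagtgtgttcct
Wnt8b, chr19:44493352-44493471, plus strand: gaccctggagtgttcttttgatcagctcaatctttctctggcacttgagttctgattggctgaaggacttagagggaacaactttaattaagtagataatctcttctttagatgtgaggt
Wnt11, chr7:98834992-98835111, plus strand: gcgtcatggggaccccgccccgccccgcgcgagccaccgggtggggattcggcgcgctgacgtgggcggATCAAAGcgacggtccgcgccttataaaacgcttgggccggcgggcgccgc
Wnt5b, chr6:119449387-119449506, minus strand: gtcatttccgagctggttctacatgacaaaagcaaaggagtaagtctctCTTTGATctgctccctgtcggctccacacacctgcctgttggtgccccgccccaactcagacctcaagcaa
The core motif CTTTGAT, read on either strand, lay in the 250 upstream bases of 2 of the 47 starts (4.26%), those of Wnt11 and Wnt5b. It was in 1053 of all 32851 promoters (3.21%). Any of the 4 motifs was in 6 of the 47 starts (12.8%) and in 14.8% of all promoters, so the share among the Wnt genes lay near that of all genes. The 6 starts belong to Dkk1, Fzd7, Lef1, Tcf7l2, Wnt11 and Wnt5b, and the match of Tcf7l2 lies before another of its starts, not in the stretch printed here. On one strand the motifs cannot cover the same bases. A match is a run of letters and not a measured binding site.

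Among the ligands, Wnt7b, Wnt5a and Wnt11 had the highest levels and together held 58.5% to 63.9% of the summed ligand TPM in each sample. They are also the only ligands whose exons overlap an antisense gene. The strand setting is not given, so their levels may include reads of that gene. The sum of all 19 ligands was 194 ± 24.3 TPM in wild type and 183 ± 16.9 TPM in Tmem216-/- (mean ± SD, n = 3 each). Wnt7b, a canonical ligand of lung, kidney and neural tissue, averaged 47.3 TPM over the 6 samples. Wnt5a and Wnt11, which act mainly through beta-catenin-independent routes in outgrowth and cell movement, averaged 36.1 and 31.5 TPM. Their ranges over the 6 samples overlapped with each other, and Wnt11 at its lowest (24.6 TPM) was still above Wnt6, the fourth, at its highest (18.8 TPM). From Wnt6 (mean 13.1 TPM) down to Wnt16 (mean 1.04 TPM) each ligand's range over the 6 samples overlapped that of the next. Within single samples some of these neighbours kept their order: Wnt6 was above Wnt5b, Wnt8b above Wnt3a and Wnt2 above Wnt9b in 6 of 6 samples. Wnt8a, an early gastrulation ligand, was at 0 to 0.18 TPM and was the only ligand under the filter.

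**Figure D2:**
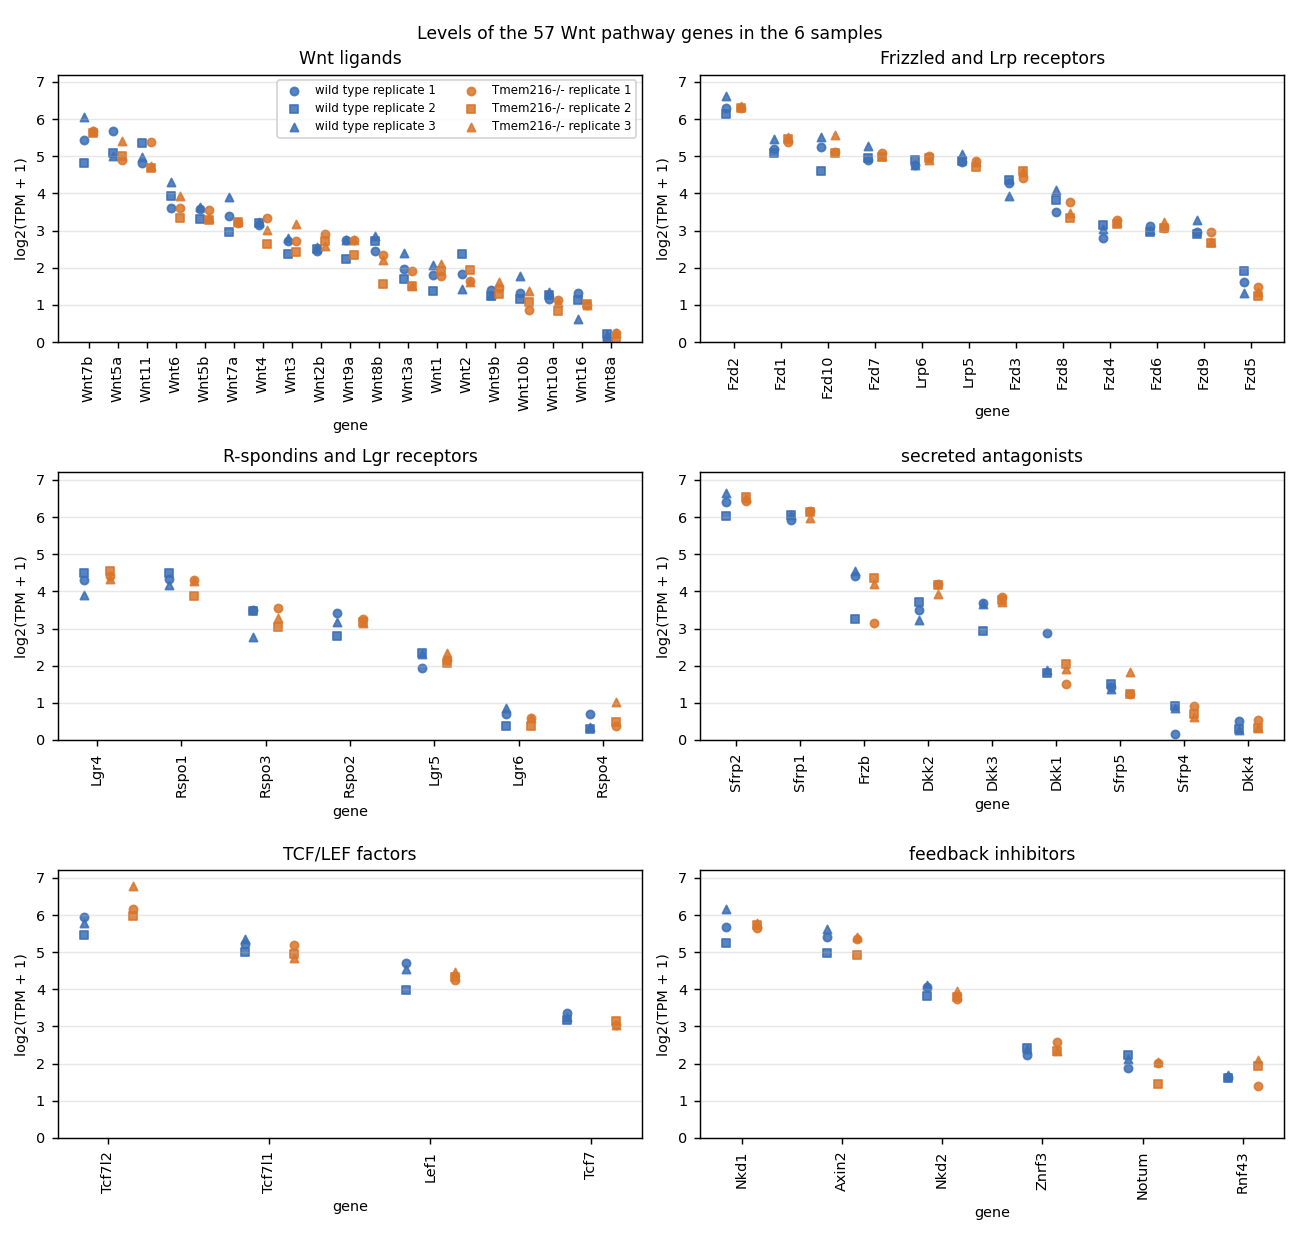
Level of each of the 57 genes on the log2(TPM + 1) scale in every sample, by class and ordered by the mean over 6 samples. Blue marks wild type, orange Tmem216-/-, and circle, square and triangle mark replicates 1, 2 and 3. Fzd2, Sfrp2, Sfrp1 and Tcf7l2 are the highest genes, and the groups overlap in all tested genes but 10.

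Wnt8b, a ligand of the medial forebrain, had the most negative fold change of any tested Wnt gene. It was at 4.42, 5.59 and 6.24 TPM in wild type replicates 1, 2 and 3 and at 4.11, 1.94 and 3.65 TPM in Tmem216-/-. All 3 Tmem216-/- values lay below all 3 wild type values, although Tmem216-/- replicate 1 was only just under wild type replicate 1. Its log2 fold change was -0.63 (SE 0.25, 95% interval -1.23 to -0.03, limma adjusted p = 0.983), and without Tmem216-/- replicate 2 it was -0.39. Of the 7 forebrain markers, 5 were lower in the same 3 samples, while Tbr1 (log2 fold change -1.36) and Six3 (0.22) overlapped between the groups. Emx1, a dorsal telencephalon factor and the one with the most negative fold change, had wild type levels of 12.7, 9.80 and 10.5 TPM, against 4.35, 1.42 and 1.38 TPM in Tmem216-/-. The 4 markers of roof plate and cortical hem overlapped between the groups, at 0.46 for Lmx1a, 0.29 for Gdf7, -0.26 for Msx1 and -0.18 for Rspo1. Whether Wnt8b differed beyond these markers was not tested.

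The other ligands with the smallest p-values were Wnt3a, Wnt2b and Wnt10a, and each of their 95% intervals included 0. Wnt3a, a ligand of the dorsal midline and tail bud, was at 2.88, 2.25 and 4.30 TPM in wild type and at 2.76, 1.87 and 1.82 TPM in Tmem216-/- (log2 fold change -0.38, interval -0.95 to 0.20). Its groups overlapped, since Tmem216-/- replicate 1 lay above wild type replicate 2, and without wild type replicate 3 the log2 fold change was -0.19. Wnt2b, a ligand of dorsal brain, eye margin and foregut mesoderm, was at 4.43, 4.70 and 4.84 TPM and at 6.44, 5.53 and 5.02 TPM (0.23, interval -0.13 to 0.59). All Tmem216-/- values of Wnt2b lay above wild type, replicate 3 only just. Wnt10a, an ectodermal ligand of teeth and skin appendages, was at 1.24, 1.42 and 1.54 TPM and at 1.18, 0.78 and 1.10 TPM (-0.25, interval -0.68 to 0.17), with all Tmem216-/- values lower. Surface ectoderm markers were also lower in Tmem216-/- as a sum. Wnt7b was at 42.1, 27.4 and 65.5 TPM in wild type and at 49.9, 48.5 and 50.4 TPM in Tmem216-/- (0.22, interval -0.46 to 0.90). The Tmem216-/- values of Wnt7b all fell inside the wild type range. Over the 18 tested ligands 6 fold changes were positive and 12 negative, with a median of -0.13.

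In the genome 8 ligands lie side by side as 4 neighbouring pairs, and the 2 genes of a pair did not always share a direction. In mm10, Wnt6 and Wnt10a are 6194 bases apart on chromosome 1 and had log2 fold changes of -0.32 and -0.25. Wnt9b and Wnt3, 24329 bases apart on chromosome 11, were both at 0.15. Wnt3a and Wnt9a, 16176 bases apart on the same chromosome, were at -0.38 and 0.04, and Wnt10b and Wnt1, 11707 bases apart on chromosome 15, were at -0.31 and 0.18. These pairs are a description, since none of the 8 genes passed the test.

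The receptors had the narrowest intervals of the 6 classes. The median half-width of the 95% interval was 0.33 on the log2 scale for the 12 receptors, against 0.55 for the ligands and 0.42 for all tested genes. Fzd2 was the highest receptor, at 77.1, 69.7 and 98.3 TPM in wild type and at 77.4, 77.9 and 80.3 TPM in Tmem216-/- (log2 fold change -0.04, interval -0.36 to 0.28). Its lowest value exceeded the highest of any other receptor. Fzd1, Fzd10, Fzd7, Lrp6 and Lrp5 followed, with means from 28.2 to 40.2 TPM and ranges that overlap from one to the next. Fzd5, an eye and gut receptor, was lowest at a mean of 1.83 TPM.

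Fzd3, Fzd4 and Lrp6 had all Tmem216-/- values above wild type. Fzd3, a receptor of planar polarity and axon tracts, was at 18.5, 19.5 and 14.2 TPM in wild type and at 20.4, 23.4 and 22.8 TPM in Tmem216-/-. Wild type replicate 3 was the lowest, and without it the log2 fold change went from 0.35 (interval -0.01 to 0.70, limma adjusted p = 0.983) to 0.21. Fzd4, a receptor of vessels that also binds Norrin, was at 6.01, 7.80 and 7.22 TPM and at 8.67, 8.10 and 8.41 TPM (0.24, interval -0.11 to 0.58). Lrp6, the coreceptor of canonical signalling, was at 26.1, 28.7 and 26.1 TPM and at 31.0, 29.98 and 29.0 TPM (0.15, interval -0.07 to 0.37). Of all receptors Lrp6 varied least, with its highest of 6 values 1.19 times its lowest. Its partner Lrp5 had a fold change of the other sign (-0.13, interval -0.38 to 0.13) and groups that overlapped.

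Fzd1 and Fzd9 overlapped between the groups. Fzd1, a broadly expressed receptor, was at 35.3, 33.1 and 43.1 TPM in wild type and at 40.9, 43.5 and 44.97 TPM in Tmem216-/- (0.22, interval -0.07 to 0.50). Only wild type replicate 3 reached the Tmem216-/- levels. Fzd9, a receptor of neural progenitors, was at 6.77, 6.53 and 8.77 TPM and at 6.73, 5.32 and 5.42 TPM (-0.29, interval -0.70 to 0.12). Only Tmem216-/- replicate 1 reached the wild type range of Fzd9. Of the receptors 6 had positive and 6 negative fold changes, with a median of 0.03.

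**Figure D3:**
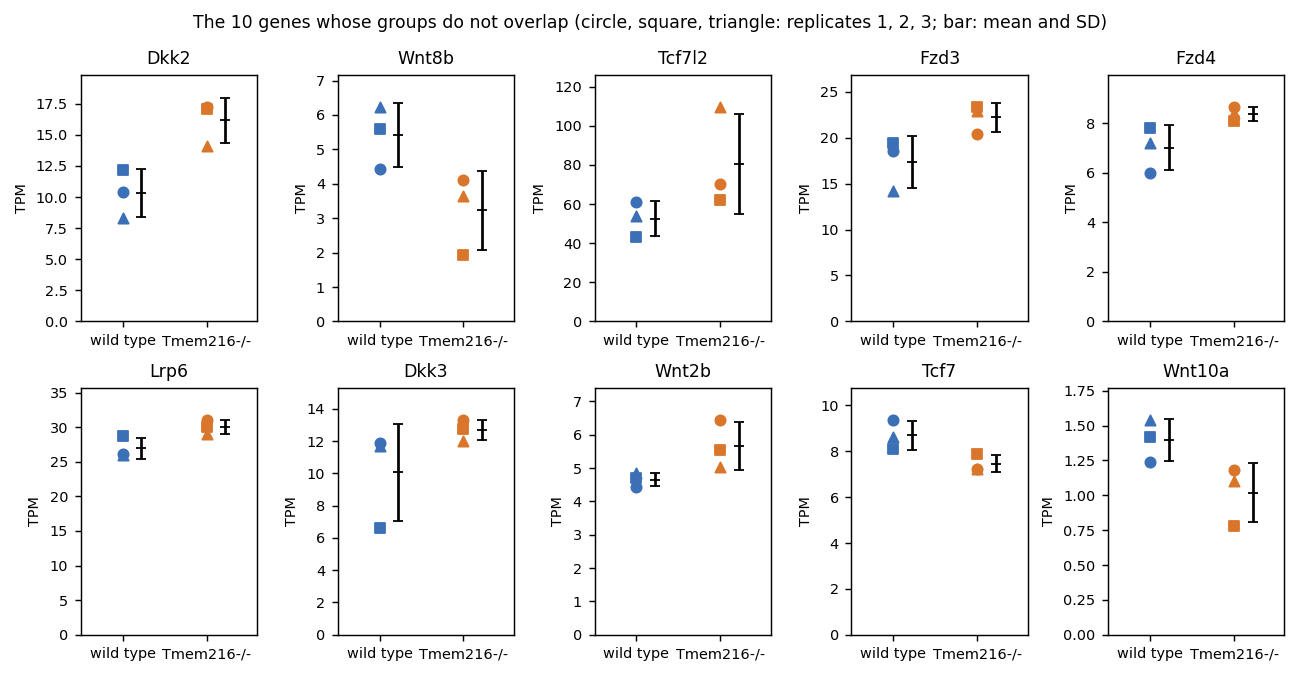
TPM of the 10 tested Wnt genes whose groups do not overlap, per sample, in order of p-value, with the mean and SD beside the points. Circle, square and triangle are replicates 1, 2 and 3, and axes start at 0. Dkk2 and Tcf7l2 have the largest upward and Wnt8b the largest downward fold change. The nearest values of the groups lie close together in all but Dkk2, for example in Lrp6 (28.7 and 29.0 TPM) and Tcf7l2 (60.9 and 62.1 TPM).

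R-spondins and their Lgr receptors lay near 0 on the fold change scale, with 5 of 7 tested and a median of 0.04. The groups were apart in 0 of these 5, against 9.57% of all tested genes, a share at which 5 genes can easily hold none. Lgr4, the Lgr receptor with the highest level, was at 18.7, 21.7 and 14.0 TPM in wild type and at 20.2, 22.2 and 19.2 TPM in Tmem216-/- (0.19, interval -0.22 to 0.59). Wild type replicate 3 was its lowest sample, and without it the log2 fold change was 0.024. Rspo1, known from gonad and roof plate, was at 19.2, 21.5 and 17.1 TPM and at 18.9, 13.7 and 18.4 TPM (-0.18, interval -0.56 to 0.20). Tmem216-/- replicate 2 alone was below the wild type range, and without it the log2 fold change was -0.042. Rspo2, a limb and lung R-spondin, was at 9.75, 5.98 and 7.98 TPM and at 8.51, 8.12 and 7.86 TPM (0.06). Rspo3, which acts in vessels and placenta, was at 10.4, 10.1 and 5.89 TPM and at 10.7, 7.28 and 8.81 TPM (0.04). The wild type range of Rspo2 held all 3 Tmem216-/- values, and that of Rspo3 held all but replicate 1. Lgr5, a target gene in many stem cells, averaged 3.61 TPM (fold change 0.00). Lgr6 and Rspo4 stayed at 0.22 to 1.03 TPM and were not tested.

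Dkk2 had the smallest p-value of all tested Wnt genes. Most Dkk proteins bind Lrp5 and Lrp6 and can block canonical signalling, and Dkk2 is known from mesenchyme of the eye, limbs and face. It was at 10.4, 12.2 and 8.31 TPM in wild type replicates 1, 2 and 3 and at 17.3, 17.1 and 14.1 TPM in Tmem216-/-. Every Tmem216-/- sample lay above every wild type sample: its lowest value there, in replicate 3, exceeded the highest wild type value, in replicate 2. The means were 10.3 ± 1.94 and 16.2 ± 1.78 TPM, a log2 fold change of 0.61 (SE 0.17, interval 0.21 to 1.01, limma adjusted p = 0.755, exact permutation p = 0.1). With each sample left out it stayed between 0.48 and 0.73. Heart muscle markers (summed 754, 1950 and 1176 TPM in Tmem216-/- replicates 1, 2 and 3) and Tbx5 were higher in the same 3 samples. The part of these tissue differences in the Dkk2 values was not tested.

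The other antagonists did not separate as far. Dkk3, a divergent family member that does not act as a classical Lrp blocker, was at 11.9, 6.61 and 11.7 TPM in wild type and at 13.3, 12.7 and 12.02 TPM in Tmem216-/- (0.35, interval -0.19 to 0.88). Without wild type replicate 2, the low sample, its log2 fold change was 0.10. Dkk1, the Lrp6 antagonist of head formation, was at 6.32, 2.51 and 2.69 TPM and at 1.86, 3.10 and 2.76 TPM (-0.37, interval -1.14 to 0.41). Wild type replicate 1 stood well above the other samples, and without it the log2 fold change was -0.03. Sfrp2 and Sfrp1, decoy proteins that bind Wnt ligands, were the highest antagonists. Sfrp2 was at 84.2, 64.1 and 98.7 TPM and at 84.8, 92.7 and 89.6 TPM (0.13, interval -0.24 to 0.51), and Sfrp1 at 59.5, 65.5 and 65.2 TPM and at 70.3, 69.7 and 62.4 TPM (0.09, interval -0.13 to 0.30). Both overlapped between the groups. Frzb, a cartilage and mesenchyme decoy, had the widest interval of the 52 genes (-1.23 to 0.88) and ranged from 7.84 to 22.2 TPM. Sfrp4 and Dkk4 stayed at 0.12 to 0.88 TPM and were not tested.

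**Figure D4:**
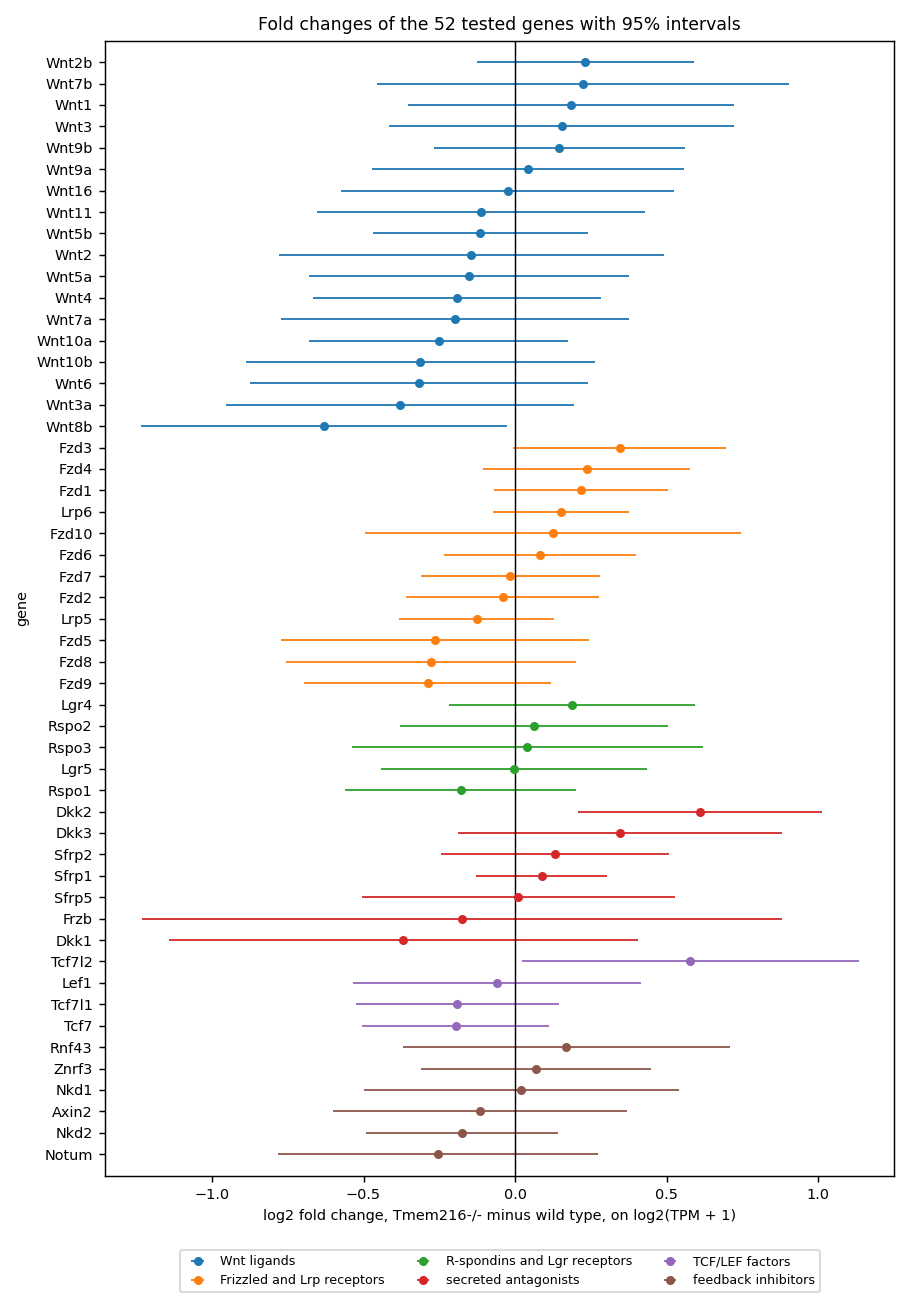
Log2 fold change (Tmem216-/- minus wild type, on log2(TPM + 1)) of the 52 tested genes with limma 95% intervals, not adjusted for multiple tests, coloured by class. The intervals of Dkk2, Tcf7l2 and Wnt8b leave out 0, and the other 49 include it.

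Of the 4 transcription factors, Tcf7l2 had the highest level and the largest fold change. Tcf7l2, a TCF of thalamus, gut and other tissues, was at 60.9, 43.0 and 53.8 TPM in wild type and at 70.1, 62.1 and 110 TPM in Tmem216-/-. The Tmem216-/- samples all lay above wild type, with replicate 3 far above the other two and replicate 2 only just above wild type replicate 1. Its log2 fold change was 0.58 (SE 0.23, interval 0.02 to 1.13, limma adjusted p = 0.983), and without Tmem216-/- replicate 3 it was 0.34. Tcf7l1, which mostly represses, was at 36.0, 30.9 and 39.9 TPM and at 35.7, 29.95 and 27.7 TPM (-0.19, interval -0.52 to 0.14). Lef1, an activator and a target gene, was at 24.9, 14.8 and 22.5 TPM and at 18.0, 19.3 and 21.0 TPM (-0.06, interval -0.53 to 0.42). The groups of both overlapped, and the wild type values of Lef1 spanned all of the Tmem216-/- ones. Tcf7 was at 9.36, 8.09 and 8.61 TPM and at 7.24, 7.88 and 7.24 TPM (-0.20, interval -0.50 to 0.11), with all Tmem216-/- values lower.

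The feedback inhibitors, the usual readout of canonical signalling, had groups apart in 0 of 6 genes, against 9.57% of all tested genes. At that share, 6 genes can easily hold none. Their sum was 118 ± 27.1 TPM in wild type and 111 ± 8.41 TPM in Tmem216-/- (mean ± SD, n = 3 each), and their median log2 fold change was -0.05. Axin2, a scaffold of the destruction complex and the most used target, was at 41.6, 30.7 and 48.7 TPM in wild type and at 40.0, 29.6 and 41.2 TPM in Tmem216-/- (-0.11, SE 0.20, interval -0.60 to 0.37, limma adjusted p = 0.983). The second replicate of each group was the lowest of its group. With a sex covariate the log2 fold change of Axin2 was -0.27. Nkd1, which binds Dishevelled, was at 50.01, 37.3 and 70.4 TPM and at 48.8, 52.2 and 53.9 TPM (0.02, interval -0.50 to 0.54). Its Tmem216-/- values all fell inside the wild type range. The edges of these intervals show which sizes of change 3 samples a group leave undecided.

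The remaining feedback genes also overlapped. Nkd2, a relative of Nkd1, was at 15.8, 13.2 and 16.4 TPM in wild type and at 12.5, 12.8 and 14.5 TPM in Tmem216-/- (-0.18, interval -0.49 to 0.14). Notum, a secreted enzyme that removes the lipid from Wnt proteins, was at 2.71, 3.72 and 3.38 TPM and at 3.03, 1.74 and 3.10 TPM (-0.25, interval -0.78 to 0.27). Only Tmem216-/- replicate 2 was below the wild type range of Notum, and without it the log2 fold change was -0.064. Znrf3 was at 3.67, 4.34 and 4.30 TPM and at 5.02, 4.04 and 4.03 TPM (0.07, interval -0.31 to 0.45). Rnf43 was at 2.11, 2.08 and 2.21 TPM and at 1.62, 2.86 and 3.32 TPM (0.17, interval -0.37 to 0.71), with Tmem216-/- values on both sides of a narrow wild type range.

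The wild type samples differed among themselves more than the Tmem216-/- samples did. In 37 of the 52 Wnt genes (71.2%) the range of the 3 wild type values was the larger on the log2 scale, against 73.0% of all tested genes. Among the feedback inhibitors it was the larger in only 3 of 6. Wild type replicate 2 was the lowest and replicate 3 the highest of the wild type samples in 18 of 52 genes (34.6%, against 32.8% of all tested genes). Wnt7b, Nkd1 and Axin2 showed this order. It held in 4 of the 6 feedback inhibitors, 7 of the 18 ligands and 4 of the 12 Frizzled and Lrp receptors. Of the antagonists 2 of 7 had it, of the TCF/LEF factors 1 of 4, and of the R-spondins and Lgr receptors 0 of 5.

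**Figure D5:**
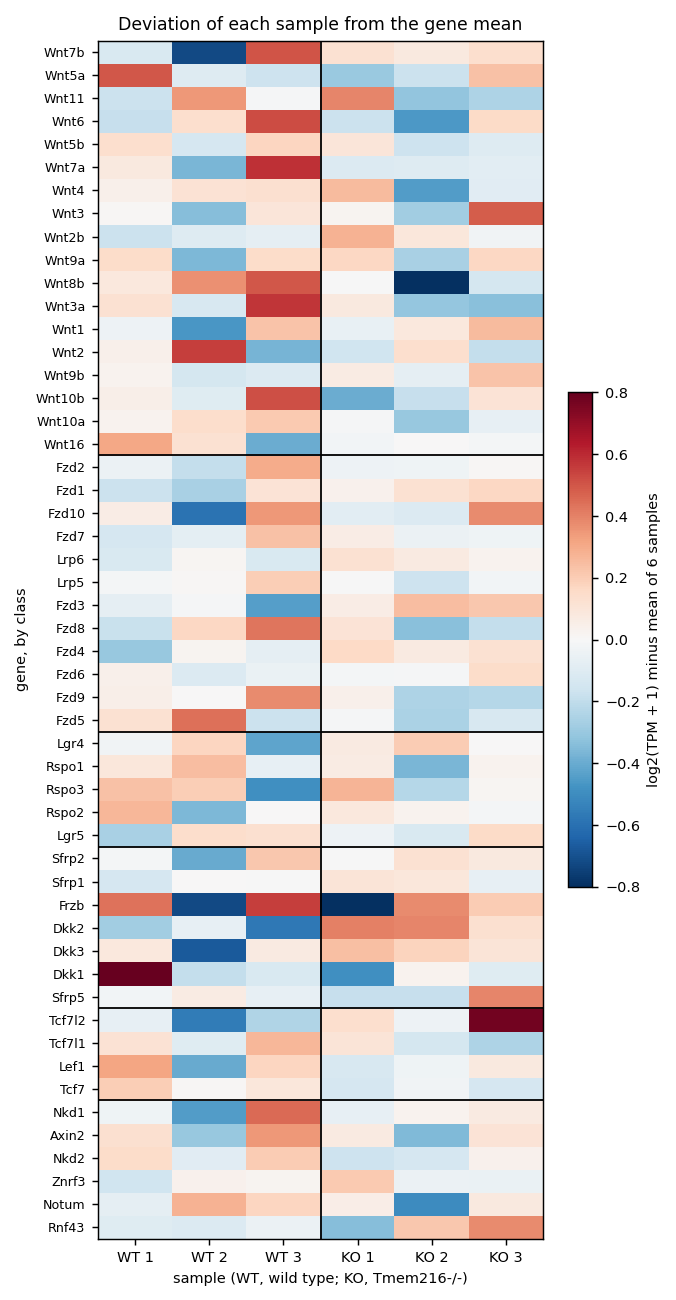
Deviation of each sample from the mean of the 6 samples for the 52 tested genes, on the log2(TPM + 1) scale (red above, blue below), with genes ordered by class and level and samples by group. Dkk2 is above its mean in all 3 Tmem216-/- samples and below it in all 3 wild type samples.

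Other genes of the pathway were measured from a list of 60, of which 56 were tested. In limma over all genes 0 of the 56 passed, against 0.104% of all tested genes. At an unadjusted limma p under 0.05 there was 1 (1.79%, against 4.46% of all tested genes). Of the 56 fold changes 20 were positive and 36 negative, with a median of -0.04. Over all tested genes 7919 were positive and 8492 negative, with a median of -0.01. In 5 of the 56 the groups were apart (8.93%, against 9.57% of all tested genes). Ror1, Reck, Amer1 and Tnks were higher in Tmem216-/-, and Tle2 was lower. The gene with an unadjusted p under 0.05 was Tle2, a Groucho corepressor that TCF factors recruit. It was at 19.2, 19.8 and 21.0 TPM in wild type and at 17.3, 12.3 and 13.2 TPM in Tmem216-/- (-0.47, SE 0.15, limma adjusted p = 0.922). All Tmem216-/- values of Tle2 were lower.

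In the secretion machinery, Wls, the carrier of Wnt proteins, was at 0.25 and Porcn, the enzyme that adds the lipid, at -0.20 on the log2 scale, with overlapping groups. Ctnnb1, which encodes beta-catenin, was at 879, 837 and 726 TPM in wild type and at 863, 903 and 913 TPM in Tmem216-/- (0.14, interval -0.09 to 0.37). Dvl1 and Dvl2, the Dishevelled proteins that relay the receptor signal, were at -0.07 and -0.09. In the destruction complex the smallest p-values belonged to Tnks2, a tankyrase that marks Axin for removal (0.24), the kinase gene Csnk1a1 (0.15) and the kinase gene Gsk3a (-0.16). Among other receptors Ror1 (0.28) and Reck (0.16) had all Tmem216-/- values above wild type, and Gpc3, a glypican, was at 0.13. Among secreted and membrane modulators Tpbg was at -0.40, Sost, an Lrp antagonist, at 0.44 and Dkkl1 at -0.33. The nuclear factors Pygo1 and Chd8 were at 0.15 and 0.11.

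No other target gene passed the test, against 0.104% of all tested genes. Of 12 listed, 8 were tested, 1 with a positive and 7 with a negative fold change and a median of -0.08. All tested genes held 7919 positive and 8492 negative fold changes. T (Brachyury), a tail bud gene, was at 1.40, 1.44 and 0.98 TPM in wild type and at 0.60, 1.04 and 0.86 TPM in Tmem216-/- (-0.31), Bambi, a pseudoreceptor, was at 0.21 and Sp8, a limb and forebrain factor, at -0.12. The groups of these 3 genes overlapped. Cdx2, a posterior body factor under the filter, was at 1.08, 0.41 and 0.03 TPM in wild type and listed at 0 in all 3 Tmem216-/- samples. The 6 tail bud markers, T among them, summed to 9.76 to 13.0 TPM in wild type and 8.56 to 14.4 TPM in Tmem216-/-. Of the 4 tested, T and Fgf8 (-0.47) had negative fold changes, and Nkx1-2 (0.74) and Cyp26a1 (0.51) positive ones. The groups of all 4 overlapped. The tail bud marker Msgn1 was listed at 0 in all 6 samples.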

How the data were processed

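RNA from 3 wild type and 3 Tmem216-/- embryo samples was measured, and the authors deposited its TPM values as one table. The submitters' processing notes name CASAVA 1.8, HISAT2, StringTie, RSEM and build mm10. Read depth, gene annotation and strand setting are not given in the sources used here. Exons of 11 of the 57 genes overlap an antisense gene, so their reads may not be told apart. The 11 are Wnt7b, Wnt5a, Wnt11, Fzd5, Fzd6, Rspo3, Sfrp2, Tcf7l1, Lef1, Axin2 and Notum. Tmem216 has the same limit, since its exons overlap Cpsf7 on the other strand. The deposited gene length column was not used in any calculation.

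The filter, a TPM of at least 1 in 3 samples or more, left 16411 rows, assembled loci included. Values were log2(TPM + 1), so fold changes of low genes are understated. The contrast, Tmem216-/- minus wild type, was fitted with limma 3.58.1 in R 4.3.3 (lmFit, eBayes with a trend, two-sided, Benjamini-Hochberg over all tested genes, threshold 0.05). Intervals are 95% moderated limma intervals without adjustment. The fit was tested on simulated data, with added changes larger than that of any Wnt gene here. That test therefore does not cover changes of the size given for the Wnt genes. Coordinates are from GENCODE M21 (mm10). The members and lists were chosen with earlier results of these data known. Values in every sample are given, in each class, for the gene with the highest mean, the up to 4 with the smallest p, any gene whose groups do not overlap with an absolute log2 fold change of 0.5 or more, and for Axin2, Lef1, Nkd1, Notum, Znrf3 and Rnf43. From the 60 other pathway genes those named are the up to 3 with the smallest p per subgroup, the tested genes with groups apart, and Cdx2. Wnt8a, Lgr6, Rspo4, Sfrp4 and Dkk4 were under the filter. Every Wnt gene may be named. Lrp6, Frzb and marker genes with values were picked with values in view. Alternatives were 2 pseudocounts, 2 filters, median-of-ratios scaling, a replicate block, a sex covariate, eBayes without a trend, and each sample left out.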

Additional observations from a re-analysis of the deposited data

How the results depend on the processing

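No Wnt gene passed limma under any of the 14 alternatives, and 1 to 4 had an unadjusted p under 0.05. Over all genes, 17 passed, 12 to 25 under the other settings, and 0 with no filter on low values (1207 at an unadjusted p under 0.05). With each sample left out the count was lowest at 0 without wild type replicate 1 (518 at an unadjusted p under 0.05) and highest at 27 without Tmem216-/- replicate 1. It was 2 and 1 without wild type replicates 2 and 3, and 9 and 7 without Tmem216-/- replicates 2 and 3. The median log2 fold change of the tested Wnt genes with each sample left out was between -0.10 and 0.038, the values when wild type replicates 2 and 3 were dropped. The replicate block gave 25 genes, 0 of them Wnt genes. Correlations of same-numbered samples' deviations were 0.02, -0.09 and 0.10, and only the samples numbered 3 correlated best with each other. Since the labels do not give the litter, these 3 values cannot tell whether same-numbered samples were paired. Dkk2, Wnt8b and Tcf7l2 kept their direction under each alternative run. With 1 sample left out, the direction turned for some named genes, of which Wnt7b had the largest main fold change in size (0.22). They were Wnt7b (-0.081 to 0.53), Fzd2 (-0.15 to 0.10), Rspo2 (-0.10 to 0.21), Rspo3 (-0.19 to 0.17), Sfrp2 (-0.034 to 0.27) and Lef1 (-0.27 to 0.084). The others were Nkd1 (-0.20 to 0.25), Axin2 (-0.29 to 0.034), Znrf3 (-0.017 to 0.11), Dvl2 (-0.17 to 0.011) and Dvl1 (-0.14 to 0.047). Tmem216 kept its direction in all 14 alternatives (-3.81 to -3.25 with each sample left out). Its limma adjusted p missed 0.05 in 8 of them: with a pseudocount of 0.1 (0.0667), no filter (0.0874), the sex covariate (0.0810), and without any one of wild type replicates 1 (0.196), 2 (0.0834) and 3 (0.0551) and Tmem216-/- replicates 2 (0.0615) and 3 (0.147). For the 29 Wnt genes picked by the rule for values in every sample, each refitted log2 fold change was compared with the main one. A gene counted as moved if either value was over 1.5 times the other in size, or if the sign turned. Near 0 this can be a small shift, as for Sfrp1 (0.09, and 0.04 to 0.14 with each sample left out). All but Dkk2 and Tcf7 (27) moved with at least 1 sample left out, and 10 moved with the sex covariate. With that covariate Nkd1 was at -0.10, Axin2 at -0.27, Wnt7b at 0.051 and Fzd2 at -0.12. Dropping the filter tests more genes and left-out samples leave fewer, and beyond that the cause was not tested. TPM keeps no read depth, so counting error is unknown.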
